A study of Mus musculus with 2 samples.

Results

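The Mu class glutathione transferases of the mouse are encoded by 7 genes, Gstm1 to Gstm7. They were picked by gene name from the 43346 genes in the tables, and all 7 were found. Their polyA mRNA was measured in testis of 1 adult male mouse of the inbred strain C57BL/6J, aged 10 weeks and with no treatment named in the labels. The 2 libraries of this animal are technical replicates 1 and 2, the second made in 2015. Both come from the same animal and there is 1 group, so an SD here is the spread of 2 technical libraries, and no comparison of conditions or animals can be tested.

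Glutathione transferases join the thiol of the peptide glutathione to electrophilic compounds, such as products of lipid oxidation and many drugs, which makes these compounds easier to clear. The cytosolic enzymes work as dimers and fall into classes by sequence, and the Mu class is 1 of them. Several classes are known in both germ cells and somatic cells of the testis. Gstm5 is the mouse counterpart of human GSTM3, a form known from testis and brain, so the numbers of mouse and human genes of this class do not match.

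All 7 genes lie within 149074 bases of chromosome 3 (107895821 to 108044894 on mm10). Gstm5 (ENSMUSG00000004032.6, 107895821 to 107898686) stands at 1 end and is the only one on the plus strand. Gstm7 (107926334 to 107931817), Gstm6 (107938847 to 107943749), Gstm3 (107963696 to 107969283), Gstm2 (107981702 to 107986453), Gstm1 (108012255 to 108017973) and Gstm4 (108040408 to 108044894) follow on the minus strand. The gaps between them run from 7029 to 27647 bases. The principal transcript of each gene has 8 exons. Its coding sequence with the stop codon has 657 bases in 6 of the genes and 675 in Gstm5.

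Among the coding sequences Gstm5 is the most distant. Its 6 pairs with the others share 69.1% to 72.3% of aligned bases, and the 15 pairs without it share 79.1% to 89.5%. Gstm1 and Gstm3 are the closest pair. The stretch of 60 coding bases with the most letters private to Gstm5 is shown because it lets the 7 genes be compared by eye. It spans the junction of exons 7 and 8 and lies at coding bases 552 to 611 of Gstm5 (chromosome 3, 107898252 to 107898485, plus strand) and 543 to 602 of the others. Capitals mark the 13 bases at which Gstm5 alone differs while the other 6 genes are identical.
Gstm5: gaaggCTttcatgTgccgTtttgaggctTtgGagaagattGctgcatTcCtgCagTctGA
Gstm1: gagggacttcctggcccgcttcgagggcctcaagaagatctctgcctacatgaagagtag
Gstm2: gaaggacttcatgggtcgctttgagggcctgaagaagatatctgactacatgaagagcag
Gstm3: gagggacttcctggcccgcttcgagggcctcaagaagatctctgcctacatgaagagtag
Gstm4: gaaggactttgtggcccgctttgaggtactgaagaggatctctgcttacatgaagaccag
Gstm6: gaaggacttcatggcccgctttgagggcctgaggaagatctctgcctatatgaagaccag
Gstm7: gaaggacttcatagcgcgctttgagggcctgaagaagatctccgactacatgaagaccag

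Gstm1 and Gstm3 are identical throughout this stretch, so a read inside it could not be told apart between them. The longest run that any pair shares in the coding sequence is 125 bases in Gstm3 and Gstm6, shown because reads within it fit both genes. It covers coding bases 169 to 293 of each, in exons 3 to 5, on the minus strand (107967642 to 107968144 for Gstm3 and 107942200 to 107942710 for Gstm6).
Gstm3 and Gstm6: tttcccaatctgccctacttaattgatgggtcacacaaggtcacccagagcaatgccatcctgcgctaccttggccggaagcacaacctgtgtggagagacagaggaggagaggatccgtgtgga

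The longest run Gstm5 shares with another member in the coding sequence is 24 bases.

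**Figure D1:**
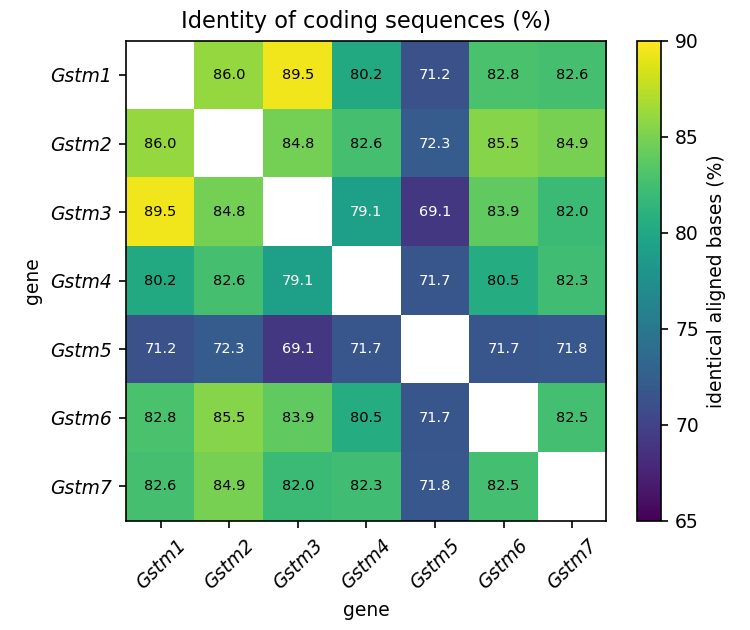
Percent of aligned coding bases that are identical for each pair of the 7 genes (both axes list the genes, the colour scale gives percent). The row and column of Gstm5 hold the lowest values, 69.1% to 72.3%, and the highest value is 89.5% for Gstm1 and Gstm3.

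Gstm5 made up most of the Mu class message in both libraries. Levels are in TPM, the share of a gene among all transcripts after scaling for length and depth, with the same total in each library. Gstm5 stood at 2548 TPM in replicate 1 and 3295 TPM in replicate 2 (mean 2921.5 ± 528 TPM, SD, n = 2). This placed it 24th and 12th among 21474 protein-coding genes. The 7 genes together reached 2862 and 4411 TPM, or 0.286% and 0.441% of all TPM. Gstm5 held 89.0% of that sum in replicate 1 and 74.7% in replicate 2 (mean 81.9% ± 10.1, SD, n = 2). In bulk tissue, fewer cells of a type and less RNA per cell cannot be told apart, so these levels do not say which cells hold the message.

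Gstm1, an abundant form of mouse liver, and Gstm2 followed at much lower levels. Gstm5 exceeded Gstm1 by a ratio of 31.9 in replicate 1 and 6.30 in replicate 2, and Gstm2 by 14.8 and 8.19. Gstm1 stood at 79.8 TPM in replicate 1 and 523 TPM in replicate 2. Gstm2 stood at 172 and 402 TPM. Their order was therefore opposite in the libraries, with a ratio of Gstm1 to Gstm2 of 0.465 in replicate 1 and 1.30 in replicate 2. The deposited intervals of the pair did not overlap within either library, and their ranges over the libraries did, so neither can be called higher.

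Gstm6 and Gstm7 lay lower again. Gstm6 stood at 43.3 and 92.8 TPM and Gstm7 at 17.4 and 88.0 TPM. Gstm6 exceeded Gstm7 by a ratio of 2.48 in replicate 1, and in replicate 2 the ratio was 1.05 with overlapping intervals (82.3 to 93.9 and 76.2 to 92.1 TPM). Gstm4 was low, at 2.09 and 10.6 TPM. It lay near the middle of protein-coding genes, at percentiles 50.9 and 61.5.

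Gstm3 was the 1 member without a usable level. It had 1 and 2 counts, at or under the floor of 3 counts that a count of 0 allows (0.0938 CPM, the count scaled by the library total but not by length, in replicate 1 and 0.145 CPM in replicate 2). Its level was thus too low to measure at this depth, and no fold is given. Exact Poisson 95% intervals for these counts were 0.0253 to 5.57 and 0.242 to 7.22 and cover counting error only. A level of 1 TPM or more in both libraries was found for 6 of 7 members, against 54.6% of protein-coding genes. In the order of mean TPM, Gstm5, Gstm1, Gstm2, Gstm6, Gstm7, Gstm4 and Gstm3, the neighbours whose ranges over the libraries overlapped were Gstm1 with Gstm2 and Gstm6 with Gstm7.

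**Figure D2:**
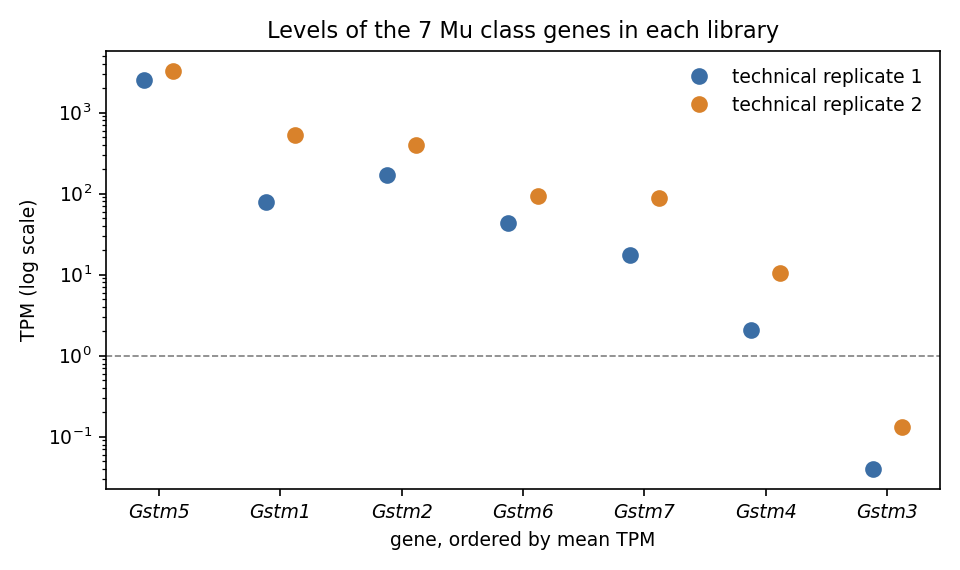
TPM on a log scale for each of the 7 genes, ordered by mean TPM, with 1 point per technical library and a dashed line at 1 TPM. Gstm5 lies at 2548 and 3295 TPM, Gstm1 and Gstm2 exchange places between the libraries, and only Gstm3 lies below the line.

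The similarity of the genes did not leave their reads divided between them. The authors deposited a posterior SD for each count, which is 0 where every read was assigned to 1 gene with certainty. It was at most 0.06 counts for every member in both libraries. For Gstm5 it was 0.00 of 29870 and 34516 counts, and for Gstm1 0.03 of 1876 and 0.04 of 7769 counts. Small values were usual: of protein-coding genes with 100 posterior mean counts or more, 87.3% in replicate 1 and 88.2% in replicate 2 had an SD of 0.1 or less.

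In the reference transcripts, words of 50 bases from the principal transcript were found in no other gene for all of Gstm4, Gstm5 and Gstm7. The share of such words was 90.6% for Gstm2, 88.2% for Gstm6, 76.85% for Gstm1 and 71.2% for Gstm3. Outside the class, 5 genes shared words with members. Of them, 3 have entries in the gene tables, among them the cluster pseudogenes Gm12494, with Gstm6, and Gm12499, with Gstm2, and each had 0 counts in both libraries. Gm8834, with Gstm1, Gstm3 and Gstm6, and Gstm2-ps1, with Gstm1 and Gstm3, have no entry in the tables used here, so the posterior SD does not cover reads that fit them. An antisense gene, 4933431E20Rik (107888850 to 107896213, minus strand), overlaps the start of Gstm5. It had 319 and 167 counts, and its posterior SD, like that of Gstm5, was 0.00 in both libraries. Whether counting used strand is not given in the labels.

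The libraries assigned the reads of Gstm5 to different transcripts. Gstm5-201, the principal transcript of 945 bases, held 33.0% of the gene's level in replicate 1 and 99.2% in replicate 2. Gstm5-202, of 599 bases, held 43.2% and 0.00%. Gstm5-206, of 658 bases, held 23.6% and 0.24%. Each of the other 3 transcripts held under 0.2% in both libraries. In counts, Gstm5-202 took 9821 reads with a posterior SD of 175 in replicate 1 and 0.00 with an SD of 5.58 in replicate 2, so the difference between the libraries exceeded the deposited spread many times over.

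Gstm5-202 lacks exon 2 of Gstm5-201 (107896298 to 107896373, 76 coding bases). It also lacks the 133 bases before the start codon and the 137 bases after the stop codon. Exon 2 is not a multiple of 3 bases long, and the annotated coding sequence of Gstm5-202 starts only within exon 4 of Gstm5-201. Gstm5-206 starts within exon 1, ends in an extension of exon 7 and lacks exon 8. The annotation gives Gstm5-202 its lowest transcript support level, 5, and Gstm5-206 a level of 2, against 1 for Gstm5-201. It tags both as not supported in the organism, and Gstm5-206 also as incomplete at its 3′ end. The coding bases of exons 1 to 3 of Gstm5-201 (chromosome 3, 107895954 to 107896690, plus strand) are shown with exon 2, the exon that Gstm5-202 omits, in capitals. Below them stands the junction that only the skipped form has, with the first base after the junction in capitals.
Gstm5-201: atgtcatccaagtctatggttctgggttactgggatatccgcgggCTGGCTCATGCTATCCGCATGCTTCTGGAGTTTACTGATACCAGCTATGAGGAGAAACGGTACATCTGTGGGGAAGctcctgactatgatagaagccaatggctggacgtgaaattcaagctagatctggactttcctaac
Gstm5-202: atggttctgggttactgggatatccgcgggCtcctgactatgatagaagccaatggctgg

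The parts of Gstm5-201 that Gstm5-202 lacks are richer in G and C than the rest. GC content was 61.7% before the start of Gstm5-202, 50% in exon 2 and 54.7% after the end of Gstm5-202, against 47.1% in the 599 shared bases. Genes of higher GC content had higher ratios of replicate 2 over replicate 1 in these libraries, and the part of this in the transcript shares was not tested.

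The split bears on the level of Gstm5, because reads given to short transcripts count for more TPM. The effective length of the gene, the number of positions at which a fragment can start, was 540 bases in replicate 1 and 765 in replicate 2. Without length scaling, Gstm5 stood at 934 and 1669 CPM, a ratio of 1.79, whereas its TPM ratio was 1.29. With the effective length of each gene's principal transcript, an alternative chosen after seeing the data, Gstm5 stood at 1818 and 3291 TPM and held 85.8% and 75.4% of the sum. The ranks of Gstm5 and the share of the Mu class among the transferases compared rest on the deposited TPM and were not recomputed with these lengths.

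**Figure D3:**
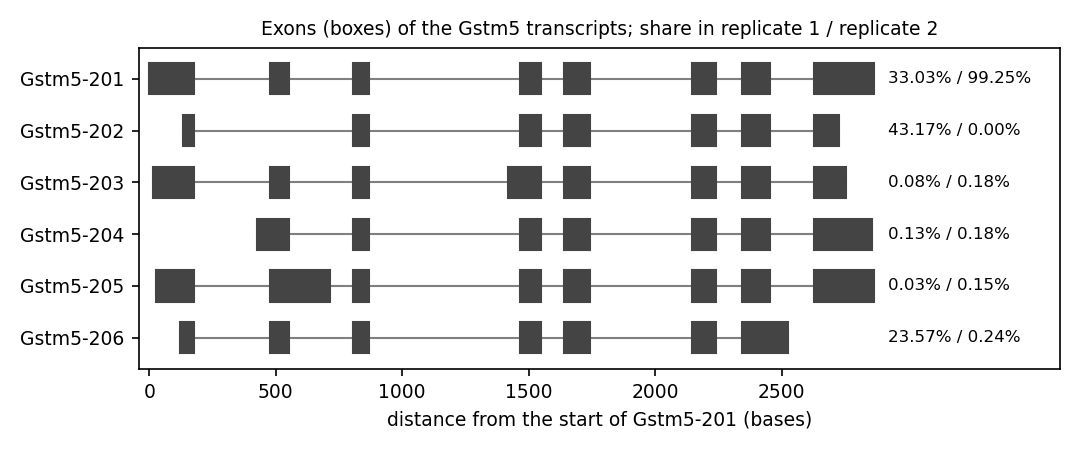
Exons (boxes) of the 6 annotated Gstm5 transcripts against the distance in bases from the start of Gstm5-201, with each transcript's share of the gene's level in replicate 1 and replicate 2 at the right. Gstm5-202 has no box at the place of exon 2 (43.17% and 0.00%), and Gstm5-206 ends before the last exon (23.57% and 0.24%).

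The other members with several transcripts kept 1 leading form, apart from Gstm4. Gstm1-201 held 97.2% and 96.0% of Gstm1, and Gstm2-201 held 91.9% and 97.3% of Gstm2. Gstm7-201 held 87.1% and 82.9%, and Gstm6-205 held 67.0% and 63.5%. For Gstm6 the second form was Gstm6-203, at 20.2% and 22.3%, which lacks exons 4 and 5 of Gstm6-205. Its share thus moved far less between the libraries than that of the exon-skipping form of Gstm5.

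In Gstm4 the leading transcript was Gstm4-203 in replicate 1 (56.0%, against 8.58% in replicate 2) and Gstm4-201 in replicate 2 (50.3%, against 25.9% in replicate 1). These splits rest on 55 and 163 counts. The deposited intervals of the 2 transcripts overlapped in replicate 1, and in replicate 2 that of Gstm4-201 lay at 3.02 to 6.44 TPM and that of Gstm4-203 ended at 2.98 TPM. Gstm4-202, at 41.1% in replicate 2, had an interval of 1.96 to 6.37 TPM there, so the lead of Gstm4-201 over it is not separated. The leading transcript thus differed between the libraries for 2 of the 6 detected members, Gstm4 and Gstm5, against 33.8% of detected genes with more than 1 transcript.

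**Figure D4:**
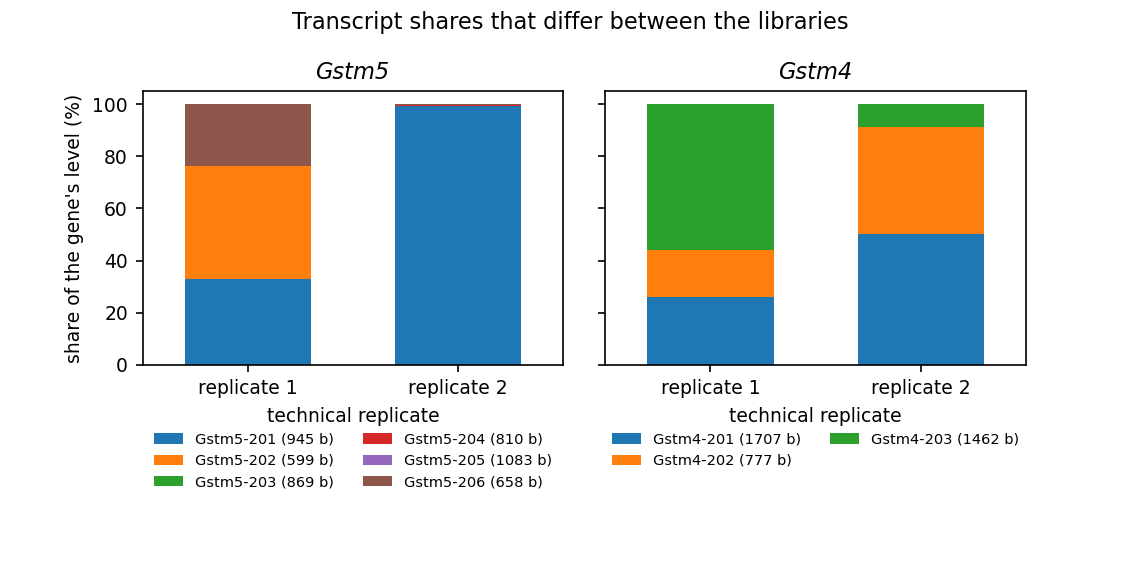
Share of the gene's level, in percent, that each annotated transcript held in technical replicates 1 and 2, for Gstm5 (left) and Gstm4 (right), with transcript lengths in bases. Gstm5-201 fills 33.0% of the first bar and 99.2% of the second, and Gstm4-203 fills 56.0% and 8.58%.

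The libraries also differed in the amount of each member. Expected counts were scaled by TMM, a method that aligns the bulk of genes between libraries, and compared as replicate 2 over replicate 1. All 6 members with a mean of 10 counts or more were higher in replicate 2, where 50% of all 18589 such genes were; relative to genes of similar GC content Gstm6 was not (log2 ratio -0.0036). The ratio was 2 or more for 3 of 6 members, against 56.6% of all genes in either direction and 32.3% toward replicate 2. A count of 3 in 6 is close to that background. With plain totals, which put the median of all genes at a log2 ratio of 0.289, 5 members passed, and 6771 genes passed toward replicate 2 and 2953 toward replicate 1, against 6008 and 4519 with TMM.

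The members did not differ by the same ratio. Gstm1 had 1876 and 7769 counts and a log2 ratio of 2.39. Gstm7 had 406 and 1260 counts and a log2 ratio of 1.97. Gstm4 had 55 and 163 counts and a log2 ratio of 1.90. These 3 passed 2-fold. Gstm2, Gstm6 and Gstm5 did not, with log2 ratios of 0.94, 0.76 and 0.55. The median over the 6 members was 1.42, and over all tested genes it was -0.0033. These ratios compare the reads of 2 libraries of 1 animal, not conditions.

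GC content moved with these ratios. It was taken from the transcript of highest mean TPM over both libraries, which for Gstm4 and Gstm5 was Gstm4-201 and Gstm5-201; their leading transcripts in replicate 1, Gstm4-203 and Gstm5-202, have 52.0% and 47.1%. The 3 members past 2-fold had the highest GC content of the 6, 53.6% for Gstm1, 53.2% for Gstm4 and 52.9% for Gstm7. The values were 51.5% for Gstm2, 51.4% for Gstm6 and 50.5% for Gstm5. Genes of like GC content had median log2 ratios of 1.44, 1.23 and 1.15 for the first 3 and 0.76, 0.76 and 0.36 for the others. Relative to those medians 0 of 6 members passed 2-fold, against 22.1% of all genes. The log2 ratios were then 0.95 for Gstm1, 0.83 for Gstm7, 0.67 for Gstm4, 0.19 for Gstm5, 0.18 for Gstm2 and -0.0036 for Gstm6.

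**Figure D5:**
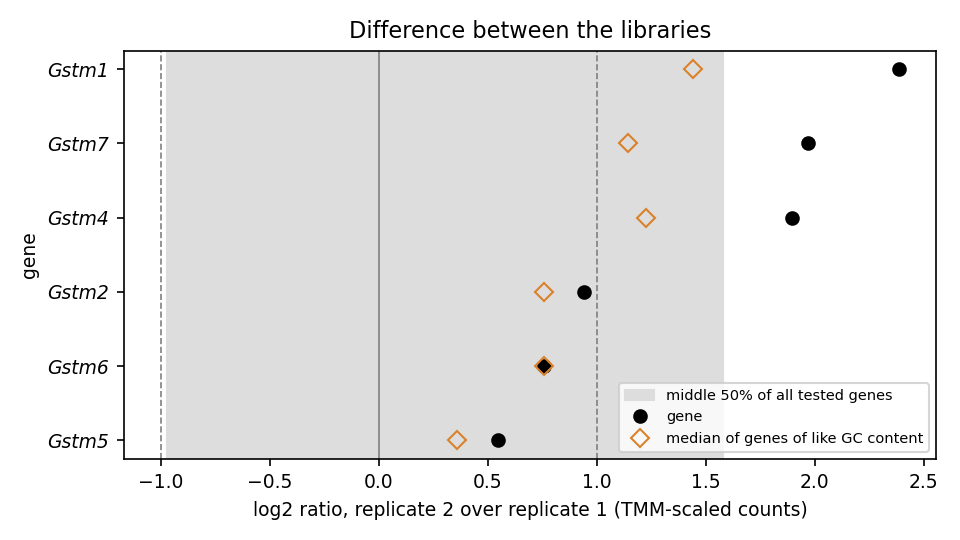
Log2 ratio of TMM-scaled counts, replicate 2 over replicate 1, for the 6 members with a mean of 10 counts or more (filled points), with the median ratio of genes of like GC content (open diamonds), the middle 50% of all tested genes (grey band) and dashed lines at 2-fold. Gstm1, Gstm7 and Gstm4 lie beyond the right dashed line, and Gstm6 lies on its diamond.

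Markers of testis cell types were at different levels in the libraries as well, and are given as the sum of each list with the number of its members past 2-fold toward replicate 2. Of all tested genes, 32.3% passed 2-fold toward replicate 2 and 24.3% toward replicate 1, and several of these short lists lie near those shares. Elongating spermatid markers summed to 9139 and 50350 TPM (4 of 6). The nuclear protamine Prm2 was highest by mean at 45.4 and 15928 TPM, although it was the lowest of its list in replicate 1. There Smcp was highest (3836 and 3821 TPM), and neither Smcp nor Odf1 (771 and 1893 TPM) passed 2-fold. Round spermatid markers summed to 1969 and 1375 TPM (0 of 4, and 1 toward replicate 1), led by the transcription factor Crem at 606 and 425 TPM. Spermatocyte markers summed to 5454 and 5595 TPM (0 of 4, and 2 toward replicate 1), led by Ldhc at 2850.2 and 4131 TPM. All markers of these 3 germ cell lists were at 1 TPM or more in both libraries. Spermatogonial markers were much lower, at 39.7 and 98.99 TPM (2 of 4), with Uchl1 highest by mean at 7.16 and 70.8 TPM, although Dmrt1 was higher in replicate 1 (22.7 and 16.2 TPM). Of the somatic lists, Sertoli markers summed to 893 and 1282 TPM (3 of 5), led by Clu at 836 and 1031 TPM. Leydig markers summed to 434 and 2022 TPM (1 of 4), with the hormone Insl3 highest by mean at 83.2 and 1630 TPM, although Cyp17a1 was higher in replicate 1 (225 and 242 TPM). Peritubular myoid markers summed to 13.3 and 70.5 TPM (3 of 3), led by the smooth muscle actin Acta2 at 9.63 and 58.5 TPM. Blood was visible as the globin Hbb-bs at 8.28 and 110.9 TPM, within red blood cell markers of 15.3 and 150.2 TPM (3 of 3). Endothelial (3.85 and 6.49 TPM, 1 of 3), macrophage (3.70 and 10.98 TPM, 2 of 3), adipocyte (12.2 and 16.5 TPM, 1 of 3) and liver markers (1.38 and 4.55 TPM, 1 of 1 with enough counts) were low, with Cdh5, Csf1r, Adipoq and Alb the highest of each by mean; in replicate 1 Kdr exceeded Cdh5 and Adgre1 exceeded Csf1r. Epididymis markers summed to 62.6 and 25.1 TPM (0 of the 3 that averaged at least 10 counts, and 2 toward replicate 1), led by Crisp1 at 53.8 and 19.3 TPM, while Lcn5 and Lcn8 had 0 counts in both libraries. Relative to genes of like GC content, log2 ratios were 4.24 for Prm2, -0.16 for Crem, 0.60 for Ldhc and 0.50 for Uchl1. With TMM alone they were 8.125, -0.995, 0.32 and 3.07. For Clu, Insl3 and Acta2 they were -0.88, -1.23 and 2.17, against 1.51, 3.99 and 2.28 with TMM alone. Hbb-bs had 3.20 against 3.87, and Crisp1 0.04 against -1.79. The parts of GC content in the marker differences and of cell makeup in the ratios of the members were not tested.

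The Mu class held most of the message of the glutathione transferases compared. Over 25 transferase genes, it made up 83.6% of the summed TPM in replicate 1 and 79.4% in replicate 2. This majority rests on Gstm5. Without Gstm5 the Mu class summed to 314 and 1116 TPM, of 3424 and 5555 TPM for all 25 genes. The Theta class summed to 244 and 564 TPM, most of it Gstt4 (229 and 487 TPM). The Omega class summed to 87.6 and 233 TPM, led by Gsto2 (84.1 and 228 TPM), and the Alpha class to 109 and 151 TPM, with Gsta4 at 33.7 and 69.5 TPM and Gsta3 at 39.9 and 47.1 TPM. The membrane-bound microsomal class summed to 82.6 and 79.0 TPM, led by Mgst1 (77.0 and 65.2 TPM). Gstz1, of the Zeta class and part of tyrosine breakdown, stood at 29.4 and 45.9 TPM. The Pi class, prominent in many other tissues, summed to 3.88 and 60.5 TPM. Gstt4, the highest transferase outside the Mu class, thus stood above Gstm2 in both libraries and above Gstm1 in replicate 1 only, and Gstm5 stood above Gstt4 in both.

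Of 43 other genes of glutathione chemistry and related redox control, 31 were at 1 TPM or more in both libraries, against 54.6% of protein-coding genes. The 43 include the transferases of the other classes given above. Those detected include Gclm, the modifier subunit of the enzyme of the rate-limiting step in making glutathione (75.3 and 50.8 TPM). They also include Hagh, a hydrolase that acts on glutathione thioesters (71.7 and 341 TPM). Gss, another maker of glutathione, stood at 0.82 and 5.20 TPM and so is not among the 31. Among the 40 with a mean of 10 counts or more, 15 passed 2-fold toward replicate 2 and 3 toward replicate 1, against 32.3% and 24.3% of all genes. Their median log2 ratio was 0.38.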

How the data were processed

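PolyA mRNA of testis of 1 mouse was quantified in 2 technical libraries, whose expected counts summed to 31995370 and 20675521 over genes after rounding. The authors deposited expected counts (estimated reads that need not be whole), TPM and FPKM per gene and transcript. They also deposited the percent of a gene's level held by each transcript and, as scores, the posterior SD of counts, posterior mean TPM and a TPM interval of unstated level. That interval surrounds the posterior mean TPM, so it can exclude the TPM itself, as for Gstm5 in replicate 1 (2408 to 2475 TPM against 2548). Per the deposited notes, values derive from transcriptome alignments on mm10 with annotation M4; the aligner and the quantifier are each not given in the sources used here. Per the labels, the library size range was 350 to 450 bases.

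Names, positions, transcript models and sequences came from GENCODE M21 on the same assembly, matched by identifier without version for 97.96% of genes. Promoter and protein sequences were not used here. Log2 ratios used counts rounded to whole numbers with 0.5 added, for genes averaging at least 10 counts; TMM factors from edgeR 4.0.16 were 0.904 and 1.11. No p-value is given, since each library is a single sample. A planned scale for the posterior SD, relative to counting noise, was not used, because the deposited SD is 0 for reads assigned with certainty. Coding sequences were aligned with MAFFT 7.526. GC correction used 100 bins of equal gene number. The ratio step was tested on counts simulated from the pooled profile of both libraries, with plain totals and no GC trend. That test therefore does not cover TMM scaling or libraries as different as these. Other scaling used DESeq2 1.42.0 size factors, plain totals, another pseudocount, filters, FPKM and posterior means. Scripts ran in Python 3.11.15 (pandas 2.3.3, numpy 2.4.6, scipy 1.17.1, matplotlib 3.10.9) and R 4.3.3.

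The members and lists were chosen with earlier results of these data known. Named genes were all members, the 8 highest other glutathione genes by mean TPM, class leaders, cluster neighbours, the highest marker of each cell type and the 3 protein-coding genes nearest in level to the highest member. The class sums, the classes' leading genes, Gss and the pseudogenes that share words were chosen after seeing the data.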

Additional observations from a re-analysis of the deposited data

How the results depend on the processing

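Gstm5 held most of the Mu class level under every alternative run, at 81.9% as reported, 76.1% of expected counts, 80.6% with the length of the principal transcripts and 74.7% to 89.0% when either library was left out. The summed level was 3637 TPM as reported, 2431 in FPKM, which is another unit, and 2862 to 4411 TPM without either library. The number of members detected was 5 at a limit of 5 TPM and 6 in the other settings run. The number of members past 2-fold was 3 as reported, against 56.6% of all genes. It was 5 with plain totals (52.3% of all genes), 5 for the TPM ratio (51.9%) and 0 relative to genes of similar GC content (22.1%). At 1.5-fold it was also 5, and the share of all genes at that limit is not given here. The log2 ratio of Gstm6 changed sign relative to genes of similar GC content, to -0.0036. The lowest share of unshared words among members rose from 71.2% to 86.2% with words of 100 bases, since longer words meet more differences. The order by mean TPM held all 7 places in replicate 2 and 5 of them in replicate 1, where Gstm1 and Gstm2 exchange places. The count of members with 1 leading transcript in both libraries could not be made from a single library. No paired analysis was possible because there is only 1 group. Depth limits Gstm3, with 1 and 2 counts, and the transcript split of Gstm4.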

Other observations

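Message from the chromosome region around the cluster was uneven. Within 200 kilobases of the 7 genes lie 10 other protein-coding genes, of which 5 were at 1 TPM or more in both libraries. That is close to the 54.6% of all protein-coding genes at this limit. Gnai3, a G protein subunit, was the highest of them at 72.1 and 34.9 TPM, on the far side of Gstm4 from Gstm5. Eps8l3, the gene just before Gstm5, stood at 6.07 and 27.4 TPM. Csf1, the growth factor of macrophages, stood at 1.75 and 2.71 TPM, Ampd2 at 1.34 and 4.46 TPM and Cyb561d1 at 1.07 and 2.05 TPM. Gstm5 stood above each of these neighbours in both libraries, at 2548 and 3295 TPM.

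The protein-coding genes nearest to Gstm5 in level, by distance of log2(TPM + 1) over the 2 libraries, were Ldhc, the sperm lactate dehydrogenase (2850.2 and 4131 TPM, distance 0.364), Smcp, a protein of the sperm mitochondrial capsule (3836 and 3821 TPM, distance 0.627), and Fhl4 (3287 and 1890.4 TPM, distance 0.881). With 2 libraries of 1 animal this likeness is one of level only.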
